A study of Papio anubis with 12 samples.

Results

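The heterotrimeric G protein subunits are the alpha, beta and gamma chains that carry a signal from a membrane receptor to enzymes and channels inside the cell. The set described here holds 33 genes, of which 16 are alpha subunits, 5 are beta subunits and 12 are gamma subunits. Members were taken by gene symbol from the annotation of the array, keeping probe sets with exactly 1 symbol. All 33 genes were measured, by 87 of the 54613 probe sets that are not controls, and 19775 genes had such a probe set in all. For 20 members with several probe sets the one with the highest mean signal over all arrays stands for the gene, and the other 54 probe sets are given beside it.

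RNA came from the precentral gyrus, the primary motor cortex, of 12 baboon neonates that were 83 to 87 days old, and each animal was measured on 1 Affymetrix HG-U133 Plus 2.0 array. All were born spontaneously at about term and were fed 1 formula for 12 weeks. The animals of group L3 (4 females) drank a formula with 1.00% docosahexaenoic acid (DHA) and 0.67% arachidonic acid (ARA). Those of group L (3 females and 1 male) had 0.33% DHA and 0.67% ARA, and those of group C (2 females and 2 males) had a formula without either fatty acid. No group received DHA alone, so L3/C and L/C ask what both fatty acids together do, and L3/L asks what more DHA does at equal ARA. Males were unevenly spread over the groups, so sex is partly mixed with formula in each comparison.

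In the resting G protein an alpha subunit holds GDP and is bound to a beta-gamma pair. An active receptor makes the alpha subunit exchange GDP for GTP, and both parts of the complex then act on their own effectors until the alpha subunit has hydrolysed its GTP. Alpha subunits are sorted by effector: Gs and Golf stimulate adenylyl cyclase, Gi inhibits it, Go acts largely through the beta-gamma pairs it releases, Gq stimulates phospholipase C beta, and G12 and G13 act on the cytoskeleton. Transducins, of the Gi/o class, are the G proteins of photoreceptors and gustducin is that of taste cells. In cerebral cortex Go is known as an abundant protein of neurons, and released beta-gamma pairs open GIRK potassium channels and inhibit calcium channels.

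Values are MAS5 signals, an intensity on a linear scale, which had been scaled so that every array has a 2%-trimmed mean of 250.0. Differences were fitted on log2(signal + 16) after quantile normalization, a scale on which changes of dim probe sets are understated, and standard errors (SE) and p values are those of limma over all 54613 probe sets. Exact permutation tests are two-sided, on the normalized log2 values of 4 against 4 arrays, for which 0.0286 is the smallest p that can be reached. The arrays differed in the ratio of 3' to 5' signal of the ACTB controls, a measure of how complete the labelled RNA was: it was 72.3, 6.24, 3.65 and 1.13 in L3, 11, 2.51, 1.07 and 0.904 in L, and 12.1, 5.15, 3.64 and 0.982 in C (replicates 1 to 4). The 3 highest values came from replicate 1 of each group. Each of 10 neuron markers had a signal of 838 or more on every array, among them SNAP25 at 15482 or more. Of 7 photoreceptor markers, 5 had a median over the arrays below the 132.1 of all probe sets, such as PDE6A at 33.8.

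Of the 33 members, 24 had a mean log2 value above the median of all probe sets and 9 lay below it. Those 9 were the transducin and gustducin subunits GNAT1, GNAT2, GNAT3, GNGT1 and GNGT2, together with GNB3, GNG8, GNG10 and GNG13. Signals of different probe sets are not on a common scale and were not ranked against each other. The spread between animals of the same formula differed widely among members, from a standard deviation (SD) of 0.09 on the log2 scale for GNAS to 1.28 for GNAI2, with a median of 0.52 over the members against 0.72 over all probe sets.

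No subunit passed an adjusted p of 0.05 in L3/C, L/C, L3/L or the F test across the 3 groups, and the smallest adjusted p of any member was 0.891. At an unadjusted p under 0.05 there were 2 members in L3/C (GNG7 and GNGT2, both lower in L3), 1 in L/C (GNA12, higher in L) and 1 in L3/L (GNG11, lower in L3). The members called were 6.06% in L3/C, against a background at that threshold of 4.26% of all probe sets (2.22% higher in L3 and 2.04% lower). They were 3.03% in L/C, against 2.42% (1.15% higher in L and 1.27% lower), and 3.03% in L3/L, against 5.40% (2.96% higher in L3 and 2.44% lower). Over the brightest probe set of each gene the background was 3.94% in L3/C, 2.13% in L/C and 5.16% in L3/L, so the members' counts were near the background. The F test gave 2 members, GNG11 and GNA12, which is 6.06% against a background of 3.67% of all probe sets and 3.31% of the brightest. By adjusted p the background was 0.00% in each of these comparisons.

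The median log2 difference of the members was -0.12 in L3/C, 0.11 in L/C and -0.23 in L3/L, against medians of -0.001, -0.01 and 0.01 over all probe sets. In L3/C 13 members were higher and 20 lower, in L/C 20 were higher and 13 lower, and in L3/L 11 were higher and 22 lower. Centring each array on its median moved the median of all probe sets to -0.12 in L3/C and -0.13 in L3/L, and the members then lay -0.20 and -0.32 from it. The sign of the L3/C median turned, to 0.05, with the signal of the hybridization spike-ins as a covariate, and in that fit the L3/L median was -0.04. That spike-in signal (mean log2) differed between formulas. Its median was 13.21 in L3 (10.83 to 13.72), 11.54 in L (10.77 to 13.04) and 12.14 in C (11.14 to 12.71). The part of the spike-in signal in the members' medians was not tested. The L/C median was -0.01 with age as a covariate. The 2 comparisons with C share their C arrays, and the 3 comparisons are not independent.

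**Figure D1:**
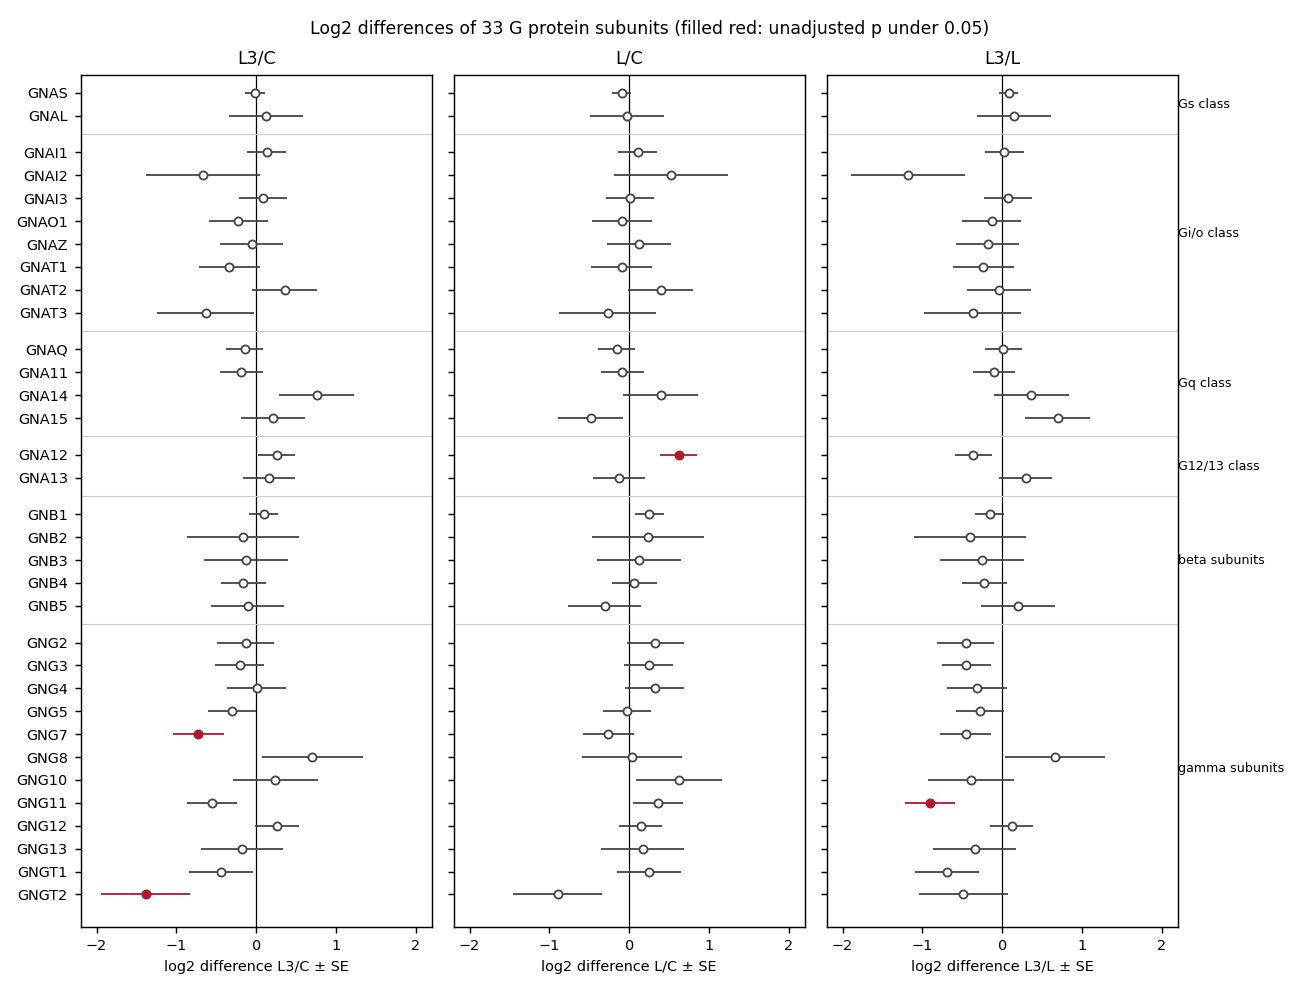
Log2 differences of the 33 G protein subunits (1 probe set per gene) in L3/C, L/C and L3/L with SE bars, sorted by class; filled red points have an unadjusted p under 0.05. The 4 red points are GNG7 (-0.72) and GNGT2 (-1.38) in L3/C, GNA12 (0.62) in L/C and GNG11 (-0.91) in L3/L, and none passed an adjusted p of 0.05.

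Both members of the Gs class, which stimulate adenylyl cyclase, stayed within their error. GNAS, the ubiquitous Gs alpha subunit, had signals of 20345, 20221, 15266 and 18727 in L3, of 12524, 24894, 17112 and 19516 in L, and of 20092, 18603, 27391 and 19509 in C. The groups overlapped in full, and the log2 differences were -0.01 ± 0.12 in L3/C, -0.09 ± 0.12 in L/C and 0.08 ± 0.12 in L3/L (SE). The means of its signal were 18640 ± 2366 in L3, 18510 ± 5150 in L and 21400 ± 4041 in C (SD, n = 4 each). The GNAS locus gives several overlapping transcripts, and its 5 brightest probe sets, all with names ending in _x_at, which marks probes that can also match other sequences, differed by between -0.11 and 0.14 in the 3 comparisons. Among the dimmer ones 214157_at differed by -0.295 ± 0.195 in L3/L and 228173_at by 0.58 ± 0.36 in L/C. There the groups compared did not overlap after normalization (exact permutation p = 0.0286, unadjusted p = 0.151 and 0.13). For the other dimmer probe sets the groups overlapped in each comparison.

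GNAL encodes Golf, the olfactory and striatal relative of Gs that couples dopamine D1 receptors to adenylyl cyclase in the striatum. Its signals were 389, 778, 262 and 360 in L3, 374, 678, 165 and 440 in L, and 207, 343, 623 and 492 in C. The 3 groups spanned nearly the same range, and the log2 differences were 0.12 ± 0.46 in L3/C, -0.02 ± 0.46 in L/C and 0.14 ± 0.46 in L3/L. Other GNAL probe sets differed by -0.07 to 0.18 in L3/C, 0.06 to 0.775 in L/C and -0.84 to 0.12 in L3/L. The values of 0.775 and -0.84 came from 214071_at, with an SE of 1.09 and signals of 8.2 to 672.

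In the Gi/o class the most variable subunit was GNAI2, an inhibitory alpha subunit found in most tissues. It had signals of 135, 155, 493 and 1170 in L3, of 237, 979, 1327 and 1524 in L, and of 433, 205, 749 and 1330 in C. Every group held a low and a high array, so that the log2 differences of -0.66 ± 0.71 in L3/C, 0.52 ± 0.71 in L/C and -1.19 ± 0.71 in L3/L stayed within the spread (exact permutation p = 0.486, 0.514 and 0.2). Its 12 values went with the ACTB ratio, as described below.

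GNAO1, the alpha subunit of Go, had signals of 2423, 4751, 5613 and 10018 in L3, of 2158, 7181, 10977 and 11218 in L, and of 5669, 5225, 7944 and 10842 in C. The ranges overlapped, and the log2 differences were -0.22 ± 0.37 in L3/C, -0.09 ± 0.37 in L/C and -0.13 ± 0.37 in L3/L. Of its other probe sets 204763_s_at had signals of 1944, 1493, 1955 and 3698 in L3, of 2717, 5292, 3932 and 3683 in L, and of 2459, 2125, 5324 and 3984 in C. There 3 of the 4 L3 arrays lay below the 4 L arrays, with a log2 difference of -0.62 ± 0.22 in L3/L (unadjusted p = 0.0128, adjusted p = 0.891, exact permutation p = 0.0571).

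The other 6 members of this class are GNAI1 and GNAI3, the remaining inhibitory subunits, GNAZ, whose product resists pertussis toxin, and the rod, cone and taste subunits GNAT1, GNAT2 and GNAT3. Their log2 differences ran from -0.63 (GNAT3) to 0.36 (GNAT2) in L3/C and from -0.27 (GNAT3) to 0.39 (GNAT2) in L/C. GNAI1 was the steadiest of them, at 470 to 744 over the 12 arrays, and the signals of GNAT1 (9.2 to 80.6) and GNAT2 (17.6 to 63.5) were dim throughout.

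In the Gq class, whose members stimulate phospholipase C beta, the sizes of the differences were larger for the dimmer members GNA14 and GNA15. GNAQ, the main Gq alpha subunit of forebrain neurons in mice, had signals of 2641, 2608, 3088 and 5374 in L3, of 2123, 5412, 4041 and 4819 in L, and of 3159, 4702, 4652 and 4956 in C. The log2 differences of this probe set were -0.14 ± 0.23 in L3/C, -0.16 ± 0.23 in L/C and 0.01 ± 0.23 in L3/L. Its dimmest probe set, 224863_at, gave other values. Signals were 55.6, 152, 426 and 31.1 in L3, 575, 423, 529 and 503 in L, and 298, 128, 266 and 677 in C. After normalization the 4 L3 arrays lay below the 4 L arrays, with log2 differences of -1.34 ± 0.60 in L3/C (unadjusted p = 0.0408) and -2.15 ± 0.60 in L3/L (unadjusted p = 0.00256, adjusted p = 0.891, exact permutation p = 0.0286). The other 4 GNAQ probe sets had L3/L differences between -0.43 and 0.10.

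GNA14, a Gq class subunit of narrower expression, had signals of 297, 173, 468 and 329 in L3, of 117, 251, 271 and 243 in L, and of 137, 115, 265 and 153 in C. As deposited, 3 of the L3 arrays lay above all C arrays and the groups overlapped through replicate 2 of L3. After normalization replicate 1 of L3 also lay below replicate 3 of C. The log2 difference was 0.76 ± 0.47 in L3/C (unadjusted p = 0.127, exact permutation p = 0.171), 0.40 ± 0.47 in L/C and 0.36 ± 0.47 in L3/L. Its second probe set, 243580_at, was dim (7.7 to 34.5) and differed by -0.29 ± 0.24 in L3/C.

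GNA15, a Gq class subunit known from blood cells, had signals of 271, 266, 277 and 339 in L3, of 373, 101, 135 and 86.3 in L, and of 289, 292, 188 and 140 in C. Of the L arrays 3 were below every L3 array, and as deposited replicate 1 was the highest of all 12. After normalization replicate 4 of L3 was higher. The log2 difference in L3/L was 0.69 ± 0.40 (exact permutation p = 0.114), and those in L3/C and L/C were 0.21 ± 0.40 and -0.48 ± 0.40. GNA11, a close relative of GNAQ, ranged from 572 to 1682 over the arrays, and the sizes of its 3 differences were at most 0.19.

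The G12/13 class held the L/C call. GNA12, whose product acts on the cytoskeleton, had signals of 901, 1090, 1032 and 1327 in L3, of 1356, 1581, 1440 and 1747 in L, and of 1029, 677, 1601 and 950 in C. In L all 4 arrays lay above 3 of the 4 C arrays and above all 4 L3 arrays, and replicate 3 of C reached into the L range. The log2 difference was 0.62 ± 0.23 in L/C (1.54-fold, unadjusted p = 0.0163, adjusted p = 1.0, exact permutation p = 0.0571), 0.26 ± 0.23 in L3/C and -0.36 ± 0.23 in L3/L (unadjusted p = 0.136, exact permutation p = 0.0286).

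The L/C difference of GNA12 missed the unadjusted threshold without replicate 2 of C (0.49, unadjusted p = 0.056), without further normalization (unadjusted p = 0.0504), with median centring (unadjusted p = 0.12), without a variance trend (unadjusted p = 0.0521) and in females only (unadjusted p = 0.0574). Its second probe set, 221737_at, had signals of 905, 370, 117 and 315 in L3, of 706, 163, 164 and 188 in L, and of 449, 781, 233 and 198 in C, and a difference of the other sign in L/C (-0.48 ± 0.62). Meninges markers also had a positive median in L/C (0.72, 6 of 6 higher in L, with 1 at an unadjusted p under 0.05), with summed signals of 3245 to 11900 in L and 2124 to 6827 in C. Their median was 0.93 in L3/C (5 higher and 1 lower, with 2 at that threshold) and 0.20 in L3/L, where GNA12 was lower in L3. Microglia markers had a median of 0.53 in L/C (6 of 6 higher in L, with 1 at that threshold), with summed signals of 1751 to 6158 in L and 1519 to 3671 in C, and the part of either in the GNA12 value was not tested.

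GNA13, the second subunit of the class and required for vessel formation in the mouse embryo, had signals of 536, 885, 739 and 1006 in L3, of 368, 736, 875 and 1063 in L, and of 530, 733, 687 and 986 in C on its brightest probe set, 224761_at. These values hardly separated the groups, with log2 differences of 0.16 ± 0.33 in L3/C, -0.13 ± 0.33 in L/C and 0.29 ± 0.33 in L3/L. On probe set 227539_at, which is dim, they were 189, 29.2, 105 and 40.0 in L3, 12.0, 117, 75.0 and 18.0 in L, and 20.4, 82.4, 15.2 and 3.3 in C. The median of that probe set was highest in L3 and lowest in C, but all groups overlapped, and the log2 differences were 1.11 ± 0.63 in L3/C (unadjusted p = 0.0976, exact permutation p = 0.143), 0.66 ± 0.63 in L/C and 0.45 ± 0.63 in L3/L. The paper reports GNA13 and GNA14 as increased in both groups given DHA. Its report comes from these same arrays, so the values here are not independent of it. The third probe set, 206917_at, differed by -0.11 ± 0.46 in L3/C and -0.17 ± 0.46 in L/C.

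**Figure D2:**
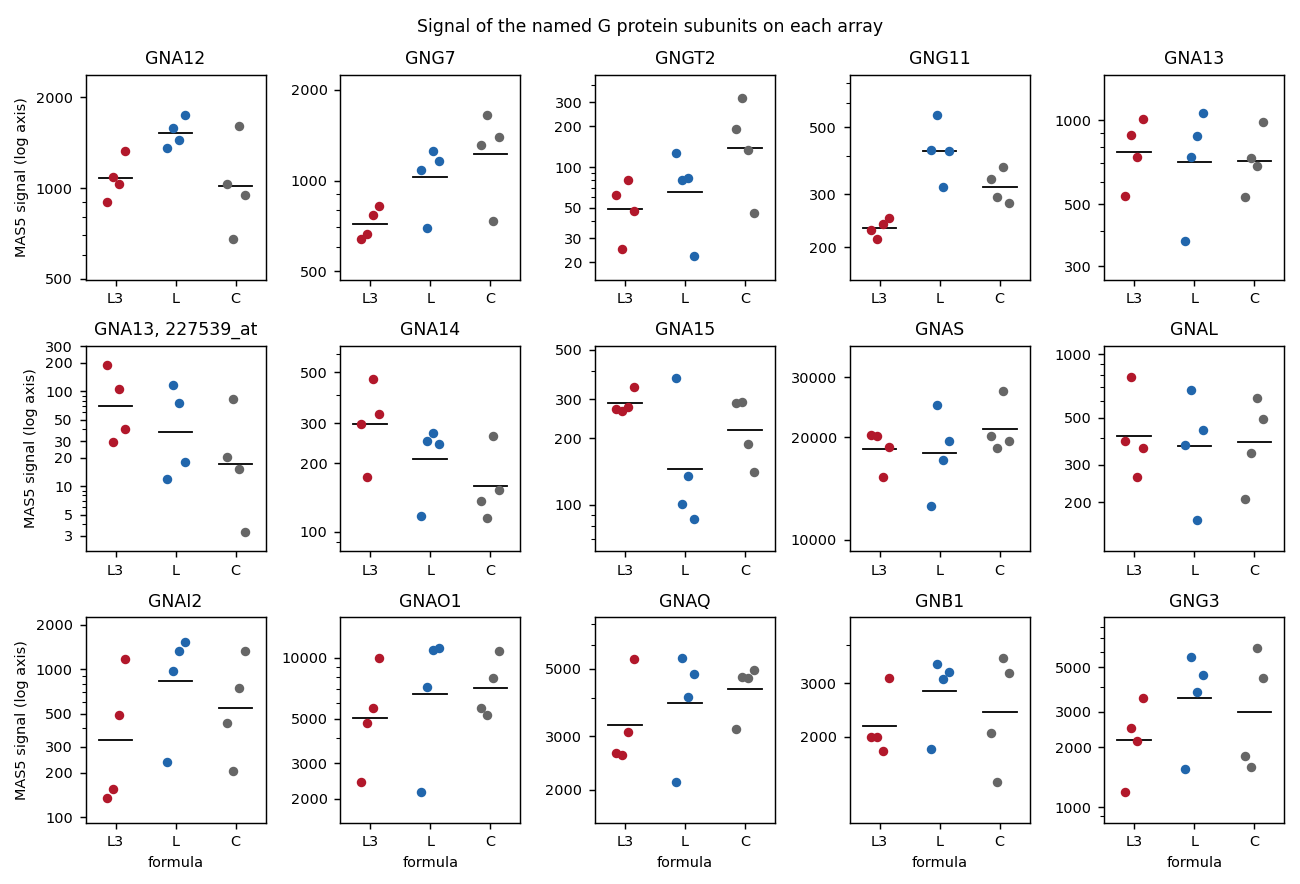
MAS5 signal (log axis) of 14 named G protein subunits, and of a further GNA13 probe set, on each array, with 4 points per formula from replicate 1 (left) to 4 (right) and a bar at the geometric mean. The 4 L3 arrays of GNG11 lie below the 4 L arrays, whereas for GNG7, GNGT2 and GNA12 (L/C) the groups overlap through 1 or more arrays.

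Beta subunits form the fixed partner of gamma subunits, and none of the 5 met the unadjusted threshold in any comparison. GNB1, the most widely used of them, had signals of 2002, 1995, 1802 and 3134 in L3, of 1830, 3468, 3090 and 3259 in L, and of 2056, 1426, 3625 and 3236 in C. The ranges overlapped, and the log2 differences were 0.09 ± 0.18 in L3/C, 0.25 ± 0.18 in L/C and -0.16 ± 0.18 in L3/L. GNB2 was as variable as GNAI2, from 170 to 1952 over the arrays, with an SE of 0.70 for each comparison. GNB3, the beta subunit of cone transducin, was dim (28.3 to 164), and GNB4 and GNB5, the partner of the R7 group of RGS proteins, differed by -0.16 ± 0.29 and -0.11 ± 0.46 in L3/C.

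Gamma subunits anchor the beta-gamma pair in the membrane, and they are 12 of the 33 members. At an unadjusted p under 0.05 there were 2 of 12 in L3/C (16.7%), 0 in L/C and 1 in L3/L (8.33%). The backgrounds over all probe sets were 4.26%, 2.42% and 5.40%, and the gamma shares rest on 1 or 2 genes. The median log2 difference of the gamma subunits was -0.19 in L3/C, 0.21 in L/C and -0.42 in L3/L. In L3/L 10 of the 12 were lower in L3 and 2 higher. Of all probe sets 27020 were lower in L3/L and 27593 higher. Over 5 other settings the gamma median kept its sign in each comparison, at -0.43 to -0.11 in L3/C, 0.15 to 0.26 in L/C and -0.64 to -0.29 in L3/L. These were no further normalization, median centring, a pseudocount of 1, and the spike-in signal or the ACTB ratio as a covariate. With age or sex as a covariate, in females only, with a replicate block or with arrays left out it is not given here. By adjusted p there were 0 of 12 in each comparison. Oligodendrocyte markers had medians of -0.39 in L3/C and -0.41 in L3/L, with 5 of 5 lower in L3 in both and 1 of them at an unadjusted p under 0.05 (in L3/L), and summed signals of 4350 to 12680 in L3, 6546 to 15460 in L and 5581 to 15400 in C. In L/C the oligodendrocyte median was 0.02 (4 higher and 1 lower). Neuron markers had medians of -0.10 in L3/C (3 higher and 7 lower), 0.045 in L/C (5 and 5) and -0.19 in L3/L (3 and 7). In each comparison 0 of the 10 neuron markers met the unadjusted threshold. The part of these markers in the gamma subunit medians, and that of the microglia markers given with GNG11, was not tested.

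GNG11, a gamma subunit of many tissues outside the nervous system, gave the smallest p among the brightest probe sets of the members. Its signals were 229, 213, 238 and 250 in L3, 422, 549, 317 and 417 in L, and 335, 294, 368 and 281 in C. All L3 arrays lay below all L arrays, and as deposited they were also below all C arrays, although the L3 and C groups overlapped after normalization. The log2 difference was -0.91 ± 0.31 in L3/L (0.533-fold, unadjusted p = 0.00995, adjusted p = 0.891, exact permutation p = 0.0286, the smallest possible), -0.55 ± 0.31 in L3/C (unadjusted p = 0.0976) and 0.36 ± 0.31 in L/C. For groups that do not overlap after normalization the background in L3/L was 2.66% of all probe sets, and 2 of the 33 members, GNG11 and GNA12, were of this kind. In L3/C and L/C it was 2.21% and 2.10%, with 0 members.

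The mean signals of GNG11 were 232 ± 15.97 in L3, 426 ± 94.9 in L and 319 ± 39.6 in C (SD, n = 4 each). Its L3/L difference ranged from -1.05 to -0.78 over 25 alternatives and missed the unadjusted threshold in females only (unadjusted p = 0.0679), where L has 3 arrays. Endothelium markers, whose cells are a known source of GNG11, had summed signals of 1169 to 1716 in L3, 1166 to 1553 in L and 1334 to 1528 in C, with 0 of 5 at an unadjusted p under 0.05 and a median L3/L difference of -0.26. Microglia markers had a median of -0.67 in L3/L (5 of 6 lower in L3 and 1 higher, with 1 of the lower ones at an unadjusted p under 0.05), and the part of these cells in the GNG11 value was not tested. In tissue RNA fewer cells of a type cannot be told apart from less RNA per cell. A second GNG11 probe set, 239942_at, had an L3/L difference of the other sign (0.23 ± 0.64), on signals of 9.3 to 238.

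GNG7, which in mice is the gamma partner of Golf in the striatum and is also made in cortex, had signals of 639, 662, 766 and 825 in L3, of 1088, 695, 1257 and 1159 in L, and of 1313, 1651, 735 and 1396 in C. Of the C arrays 3 lay above every L3 array and replicate 3 lay among them. The means were 723 ± 87.7 in L3, 1049 ± 247 in L and 1274 ± 387 in C, and the log2 difference was -0.72 ± 0.32 in L3/C (0.606-fold, unadjusted p = 0.0387, adjusted p = 0.999, exact permutation p = 0.114). In L/C it was -0.26 ± 0.32 and in L3/L -0.46 ± 0.32.

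The call of GNG7 was lost without any 1 of replicates 1, 2 and 4 of C or replicates 1, 2 and 4 of L3, at -0.74 to -0.47 (unadjusted p = 0.0543 to 0.158), and with an age covariate, without a variance trend, in females only or without the 3 arrays of highest ACTB ratio. Its other probe sets, 206896_s_at and 232043_at, had L3/C differences of 0.08 ± 0.59 and 0.33 ± 0.73. GNAL, its partner in that complex, differed by 0.12 ± 0.46 in L3/C.

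GNGT2, the gamma subunit of cone transducin, is 1 of the dim members and had signals of 62.7, 25.0, 80.4 and 47.6 in L3, of 127, 80.4, 82.5 and 22.1 in L, and of 189, 322, 133.2 and 46.3 in C. Of the C arrays 3 were above every L3 array and replicate 4 was within the L3 range. The log2 difference was -1.38 ± 0.56 in L3/C (0.383-fold, unadjusted p = 0.0249, adjusted p = 0.999, exact permutation p = 0.0857), -0.90 ± 0.56 in L/C and -0.49 ± 0.56 in L3/L. The call was lost without replicate 1, 2 or 3 of C or replicate 2 of L3, with -1.09 without replicate 2 of C (unadjusted p = 0.0517 to 0.0812), without further normalization (unadjusted p = 0.0545) and without the 3 arrays of highest ACTB ratio (unadjusted p = 0.0694). Photoreceptor markers had summed signals of 1206 to 1823 in L3, 935 to 1535 in L and 880 to 1388 in C, and their median L3/C difference was 0.22, with 0 of 7 at an unadjusted p under 0.05.

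GNG3, the gamma subunit most typical of neurons, had signals of 1186, 2496, 2151 and 3520 in L3, of 1549, 5629, 3775 and 4599 in L, and of 1797, 1586, 6291 and 4442 in C. The groups overlapped, and the log2 differences were -0.20 ± 0.31 in L3/C, 0.24 ± 0.31 in L/C and -0.45 ± 0.31 in L3/L. Of the remaining 8 gamma subunits, GNG2, GNG4, GNG5 and GNG12 had signals of 330 to 2063 over the arrays and GNG8, GNG10, GNG13 and GNGT1 were dim. Their differences lay between -0.44 (GNGT1) and 0.71 (GNG8) in L3/C and between -0.69 (GNGT1) and 0.67 (GNG8) in L3/L. GNG8 was highest on replicate 3 of L3, at 342, beside 17.0 to 106 on the other L3 arrays.

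Different probe sets of the same subunit often did not give the same sign. Of the 20 members with several probe sets, 5 had a single sign over their probe sets in L3/C, 5 in L/C and 7 in L3/L. Of the 54 probe sets beside the brightest, 1 met the unadjusted threshold in L3/C, 0 in L/C and 3 in L3/L. These were 224863_at of GNAQ in both comparisons and, in L3/L, 204763_s_at of GNAO1 and 1555765_a_at of GNG4 (-2.04 ± 0.85, unadjusted p = 0.0281). For GNG4, signals of that probe set were 62.0, 35.4, 30.3 and 822 in L3, 171, 568, 744 and 536 in L, and 89.1, 235, 42.0 and 497 in C, so that 1 L3 array was above all others and 3 were below every L array. Where probes of a set lie in the transcript, and which transcripts of the baboon they match, was not analysed here.

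**Figure D3:**
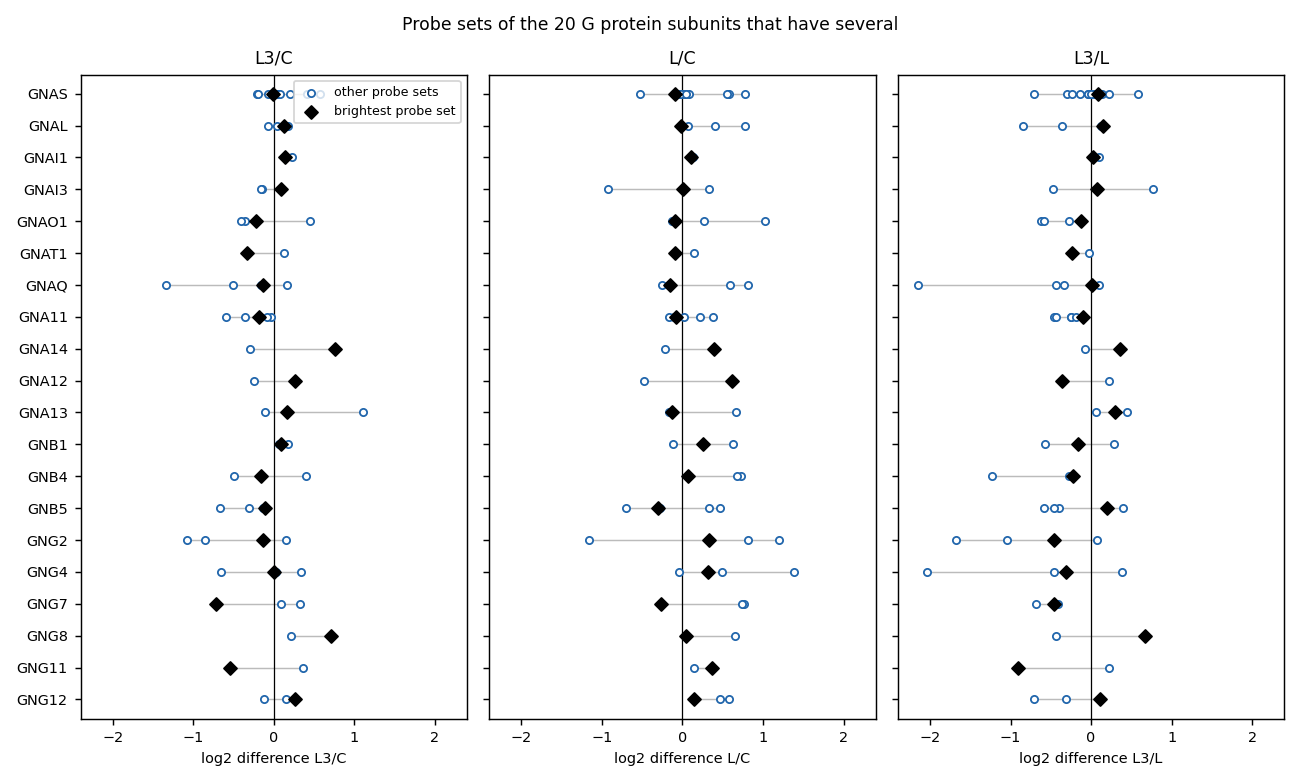
Log2 differences in L3/C, L/C and L3/L of every probe set of the 20 G protein subunits that have several, with the brightest as a black diamond and the others as open circles. In L3/L the lowest circles are 224863_at of GNAQ (-2.15) and 1555765_a_at of GNG4 (-2.04), far from the diamonds of the same genes (0.01 and -0.32).

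Genes that work with the G proteins were counted in 11 lists. They name 113 genes, and 107 had a probe set. At an unadjusted p under 0.05 there were 2 of 107 in L3/C (0 higher, 2 lower), 4 in L/C (1 higher, 3 lower) and 9 in L3/L (4 higher, 5 lower), which is 1.87%, 3.74% and 8.41% against the backgrounds of 4.26%, 2.42% and 5.40%. Their median log2 differences were -0.08 in L3/C, -0.11 in L/C and 0.05 in L3/L, and by adjusted p there were 0 in each comparison. Lists without any such gene in L3/C or L/C included phospholipase C beta, GIRK potassium channels, protein kinase A subunits, chaperones and nucleotide regulators, and receptor kinases and arrestins. In L3/L the genes at the threshold included 2 of 6 protein kinase A subunits (both lower in L3), 2 of 8 chaperones and nucleotide regulators (both higher), 2 of 10 Gs-coupled receptors (both lower), 1 of 26 Gi-coupled receptors (higher) and 1 of 9 adenylyl cyclases (higher).

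Among Gs-coupled receptors HTR4, a serotonin receptor, had signals of 261, 76.7, 291 and 184 in L3, of 333, 467, 356 and 331 in L, and of 150, 127, 61.9 and 180 in C. All L arrays lay above all arrays of L3 and of C, and the log2 difference was 1.43 ± 0.44 in L/C (unadjusted p = 0.00471, adjusted p = 1.0, exact permutation p = 0.0286). Among Gi-coupled receptors DRD2, the dopamine D2 receptor, had signals of 296, 288, 240 and 171 in L3, of 74.5, 61.5, 127 and 144 in L, and of 249, 237, 177 and 208 in C. Here all L arrays lay below those of L3 and of C, with a log2 difference of -1.01 ± 0.40 in L/C (unadjusted p = 0.0227, adjusted p = 1.0, exact permutation p = 0.0286). The other genes at this threshold in L3/C or L/C were the adenylyl cyclase ADCY7 (-1.21 ± 0.55 in L/C), the GTPase activators RGS8 (-0.99 ± 0.46 in L/C) and RGS6 (-1.27 ± 0.48 in L3/C), and the neurotensin receptor NTSR1 (-1.21 ± 0.56 in L3/C).

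The spread of 5 subunits within a formula went with the ACTB 3'/5' ratio of the array. A fit of the 3 group means with the log2 ratio as a slope, added after the values had been seen, gave 5 of 33 members at an adjusted p under 0.05, all with a negative slope. That is 15.2% of the members, against a background of 2.47% of all probe sets (2.03% with a negative slope). Over the brightest probe set of each gene the background was 2.44% (1.87% negative), and among those above the median level it was 3.33% (2.63% negative). The slopes per doubling of the ratio were -0.30 ± 0.04 for GNAO1 (adjusted p = 0.00137), -0.57 ± 0.09 for GNB2 (adjusted p = 0.00353), -0.55 ± 0.11 for GNAI2 (adjusted p = 0.0108), -0.22 ± 0.05 for GNG3 (adjusted p = 0.0198) and -0.25 ± 0.06 for GNG4 (adjusted p = 0.0414).

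GNB2 shows the pattern, with 310, 384, 623 and 1799 in L3, 170, 1323, 1466 and 1952 in L, and 238, 634, 935 and 1638 in C. Within each formula its signal was in the reverse order of the ACTB ratio. GNG4 had 519, 514, 636 and 1409 in L3, 491, 864, 1338 and 1500 in L, and 445, 729, 760 and 1044 in C, and replicate 4, with the lowest ratio of each formula, was the highest in each. The other 28 members had slopes between -0.20 (GNA13) and 0.26 (GNG10), among them 0.01 for GNAS, 0.01 for GNA12, 0.02 for GNG7 and -0.02 for GNG11.

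**Figure D4:**
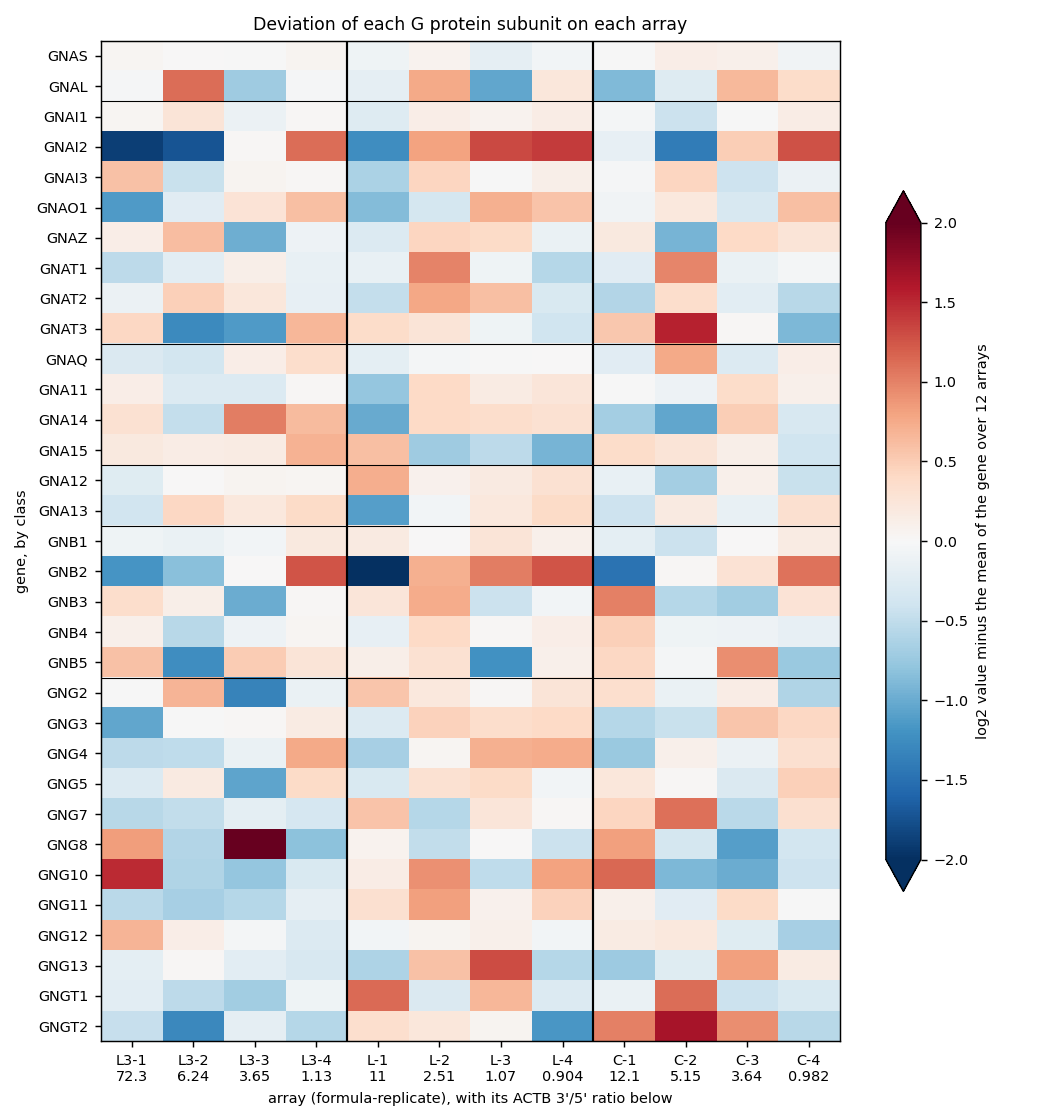
Log2 value of each of the 33 G protein subunits on each array minus the mean of that gene over the 12 arrays, in columns L3, L and C with the ACTB 3'/5' ratio under each array. GNAI2 and GNB2 are blue on the arrays with high ratios, such as replicate 1 of L3 (72.3) and of L (11), and red on replicate 4 of every formula (ratios of 0.904 to 1.13), whereas GNAS is pale in every column.

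The slopes also differed between probe sets of the same gene. On GNAO1 the slope was -0.30 for the brightest probe set but -0.04 and 0.24 for 204763_s_at and 231951_at, and on GNAQ it was -0.63 ± 0.06 for 211426_x_at (adjusted p = 5.16e-05) but -0.08 for 202615_at. Of the 87 probe sets 11, of 10 genes, had a slope at an adjusted p under 0.05, which is 12.6%, and 0 of them were positive. With the GAPDH ratio in place of that of ACTB the same 5 members were found, and with the spike-in signal 2 of them, GNAI2 and GNB2. Leaving out 1 array gave 2 to 5 members, with GNAO1 and GNB2 among them every time, with 2 without replicate 1 of L and 3 without replicate 1 or 4 of C or replicate 4 of L3.

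The median ratio was 4.95 in L3, 1.79 in L and 4.39 in C. With the ratio as a covariate the L3/L difference of GNAI2 was -0.35 ± 0.47 in place of -1.19 ± 0.71, that of GNG3 was -0.11 ± 0.21 in place of -0.45 ± 0.31, and those of GNAO1, GNB2 and GNG4 turned positive (0.33 ± 0.20, 0.47 ± 0.41 and 0.07 ± 0.27). Without the 3 arrays of highest ratio the L3/L differences stayed negative, at -1.37 ± 0.69 for GNAI2, -0.85 ± 0.45 for GNB2, -0.47 ± 0.33 for GNG4, -0.34 ± 0.24 for GNG3 and -0.09 ± 0.31 for GNAO1, and none of the 5 met the unadjusted threshold. With the ratio as a covariate GNG11 kept -0.88 in L3/L and GNA12 kept 0.63 in L/C. Without those 3 arrays they were -0.93 and 0.53, and all 4 values were under an unadjusted p of 0.05. What makes the ratio differ between arrays was not tested. It fell from replicate 1 to replicate 4 in every formula, so its effect and that of replicate order cannot be told apart.

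**Figure D5:**
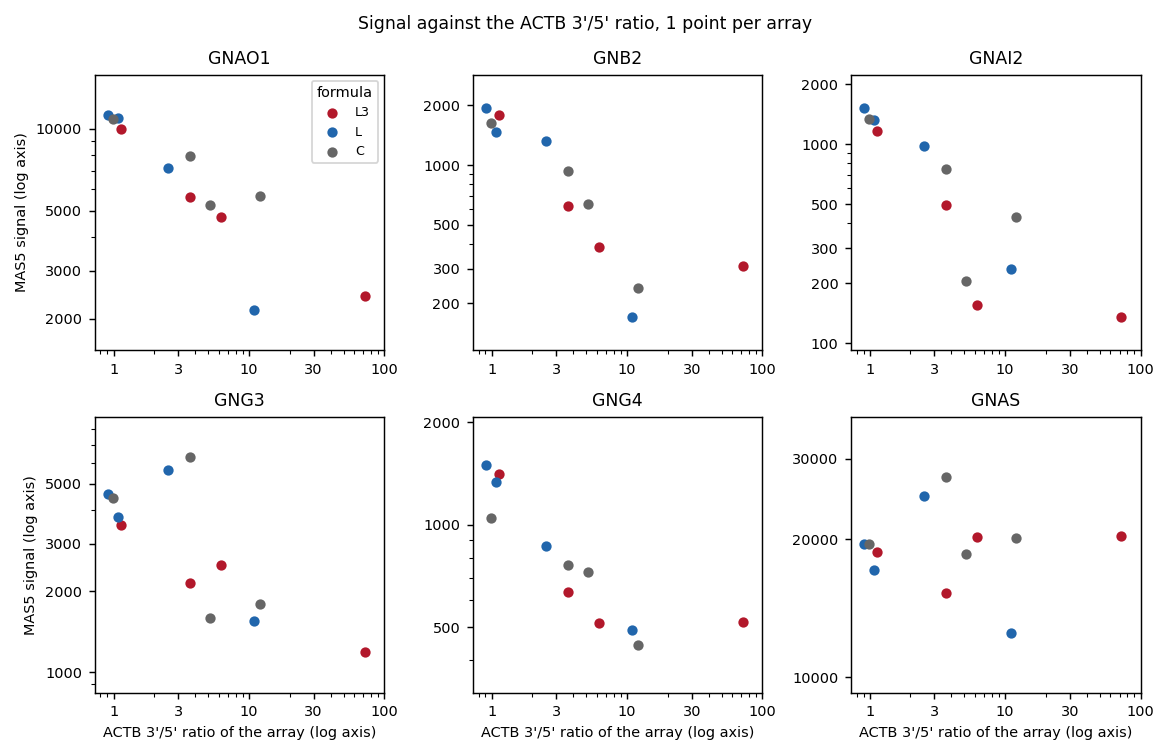
MAS5 signal (log axis) against the ACTB 3'/5' ratio of the array (log axis), 1 point per array, for the 5 G protein subunits with a slope at an adjusted p under 0.05 and for GNAS. Signals tend to fall as the ratio rises in GNAO1, GNB2, GNAI2, GNG3 and GNG4, but only GNB2 falls in strict order within all 3 formulas. GNAS had a slope of 0.01.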

How the data were processed

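The authors deposited 1 table of MAS5 signals from GCOS, an intensity on a linear scale, for 12 arrays and 54675 probe sets. RMA, named in the paper's methods, was not what this table held. Of the probe sets 62 controls were left out of the tests, and 41091 had 1 gene symbol in the platform annotation. A pseudocount of 16 was added, log2 values were quantile normalized, and limma 3.58.1 (R 4.3.3) fitted the 3 group means (9 residual degrees of freedom) with a variance trend. P values were adjusted by Benjamini-Hochberg over all 54613 probe sets. With 4 arrays a group, log2 differences had a median SE of 0.51 over all probe sets and 0.37 over the members. Each array is another animal.

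Values of every array are given for 14 members: those at an unadjusted p under 0.05, GNA13 and GNA14, which the paper names, the smallest F test p of each class, and GNAO1, GNAS, GNAL, GNAQ, GNB1, GNG3 and GNG7. Of the pathway lists, genes at that threshold in L3/C or L/C are named. Members and lists were chosen with earlier results of these data known. Alternatives were other scalings, a pseudocount of 1, a filter on dim probe sets, no variance trend, covariates (sex, age, spike-in signal, ACTB ratio), females only, a replicate block, only the 8 arrays compared, the methods' multiclass test, all probe sets, leaving out each array, and, chosen after seeing the data, leaving out the 3 arrays of highest ACTB ratio; the slope on that ratio was also added then. The fit was tested on simulated data.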

Additional observations from a re-analysis of the deposited data

Results flagged for a closer look

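In 99 groups of 4 arrays (33 members in 3 formulas) 10 held an array set far apart from the other 3 by Dixon's test on normalized log2 values. Chance alone gives about 1 in 20 if values are normally distributed. The share over all probe sets is not given here, so the count is not read as a trait of the members. The values below are the signals as deposited, on which the gaps can be smaller. GNAZ was 212 on replicate 2 of C, against 417 to 464 on the other C arrays. GNAT1 was 80.6 on the same array, against 17.5 to 22.5. GNA14 was 117 on replicate 1 of L, against 243 to 271. GNA15 was 339 on replicate 4 of L3, against 266 to 277. GNA12 was 901 on replicate 1 of L3, against 1032 to 1327. GNB2 was 170 on replicate 1 of L, against 1323 to 1952. GNB4 was 626 on replicate 1 of C, against 389 to 442. GNB5 was 236 on replicate 3 of L, against 612 to 799. GNG3 was 1186 on replicate 1 of L3, against 2151 to 3520, and 1549 on replicate 1 of L, against 3775 to 5629. Replicate 1 of L3, L and C, with the highest ACTB ratios, supplied 6 of the 10.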

How the results depend on the processing

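Signal over background limits the 9 dim members, whose differences on this log2 scale are understated. By adjusted p the count of members was 0 in every comparison under every alternative, and at an unadjusted p under 0.05 it moved by a gene or more under most. In L3/C the count of 2 became 1 without further normalization, among brighter probe sets, which leave out GNGT2, without a variance trend, with age and in females only, 0 without the 3 arrays of highest ACTB ratio, and 0 to 2 with 1 array left out. In L/C the count of 1 became 0 without further normalization, with median centring, without a variance trend and in females only, 2 without those 3 arrays, and 0 to 2 with 1 array left out. In L3/L the count of 1 became 2 with median centring, a sex covariate or the ACTB ratio, 3 with age or without those 3 arrays, 0 in females only, 4 over all 87 probe sets, and 1 to 3 with 1 array left out (3 without replicate 1 of L). In the F test the count of 2 became 0 without further normalization or with sex, 1 with a pseudocount of 1, age, females only or without those 3 arrays, 4 over all probe sets, and 0 to 3 with 1 array left out (0 without replicate 4 of L or replicate 1, 2 or 3 of L3).

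The replicate block gave 3 members in L3/L (GNAI2, GNG11 and GNG3) and 3 in the F test, and the same count in L3/C (2) and L/C (1). The numbers were not taken as pairs, since no label gives them a meaning. Same-numbered arrays deviated together by correlations of -0.09 to 0.33. Of the 12 arrays 6 correlated best with an array of their own number, and whether the numbers share an effect was not tested. The median of the members ranged from -0.32 to 0.05 in L3/C, from -0.01 to 0.21 in L/C and from -0.45 to -0.04 in L3/L. For the 14 named members 1047 alternative values of 42 differences were computed, of which 54 changed sign, 0 of them among the 4 called ones. The count of members with a slope on the ACTB ratio was 4 without further normalization or with median centring, 2 with the spike-in signal, and 2 to 5 with 1 array left out. The causes of these changes were not tested.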
